A study of Ovis aries with 17 samples.

Results

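XCR1+ dendritic cells (DC) from sheep blood were compared with XCR1- DC from the same tissue, using 1 array of XCR1+ DC and 3 arrays of XCR1- DC out of the 17 arrays of the series. Genes with a symbol were described when their level on the XCR1+ array lay outside the range of the 3 XCR1- arrays and their probe was well above background, on the XCR1+ array for a gene that was higher there and on each XCR1- array for a gene that was lower. Of 425 named genes, 182 met this rule, within a total of 14532 features (1 probe for each gene or gene identifier). All 4 arrays lay on the same slide. Because XCR1+ DC had 1 array, its values carry no error, the report is a description, and SD values below refer to the XCR1- arrays only.

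Both subsets came from control sheep and were sorted by flow cytometry from low-density blood mononuclear cells as large cells that bound an antibody to CD11c and did not bind antibodies to B cells, CD11b, TCR1 or CD45RB. Within this gate, XCR1+ DC were the CADM1hi CD172lo cells and XCR1- DC were the CADM1lo CD172hi cells. XCR1 itself was thus not used for sorting, whereas high *CADM1* in XCR1+ DC was selected for. The descriptions count 1 sheep for XCR1+ DC and 3 for XCR1- DC, but they also state that cells of several sheep were stained and that RNA from distinct sheep was combined when less than 25 ng had been obtained, and the deposited names of the XCR1+ array and of XCR1- replicate 2 call them pools. The number of animals behind each array was thus not settled, and 1 of the 3 values behind each SD may be a pool. The other 13 arrays, which held splenic B cells (B, 4), blood plasmacytoid DC (pDC, 3), splenic macrophages (MP, 3) and DC grown in culture with GM-CSF (MoDC, 3), were used only to place the levels.

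XCR1 is the receptor of the chemokine XCL1. Among mononuclear phagocytes it marks the conventional DC named cDC1, which take up dead cells and present their antigens to CD8 T cells. Their development depends on the transcription factors BATF3, IRF8 and ID2 and on the growth factor receptor FLT3, and they carry CLEC9A, a receptor for actin filaments exposed by dead cells. The other conventional DC, named cDC2, carry SIRPA, the protein recognised by CD172 antibodies, and share more genes with monocytes. Plasmacytoid DC, which secrete type I interferon, depend on the transcription factor TCF4.

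The 60-base probes behind 5 of the measurements that set the subsets apart are given here in 5′ to 3′ order as in the deposited files, all in lower case because no base is marked. They were chosen to show the receptor that names the subset, its companions *CLEC9A*, *IRF8* and *FLT3*, and *CSF1R*, which was lower in XCR1+ DC.
XCR1: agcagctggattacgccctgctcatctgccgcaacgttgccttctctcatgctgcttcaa
CLEC9A: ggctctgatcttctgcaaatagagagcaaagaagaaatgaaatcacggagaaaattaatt
IRF8: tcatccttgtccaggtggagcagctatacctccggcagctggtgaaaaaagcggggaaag
FLT3: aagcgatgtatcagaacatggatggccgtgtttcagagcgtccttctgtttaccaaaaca
CSF1R: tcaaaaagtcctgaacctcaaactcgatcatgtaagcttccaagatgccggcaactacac

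The GC content of these probes ran from 35.0% for *CLEC9A* to 55.0% for *XCR1* and *IRF8*, against a median of 43.3% over all probes. Genes above the range had a median of 45.0% and genes below it 43.3%. The *CLEC9A* and *FLT3* sequences were each printed at a second spot of the array, which repeats the measurement within each hybridisation.

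Signal intensities, with background removed by the scanner software, are given as levels on the log2 scale relative to the 75th percentile of their own array, so that 0 stands for a signal at that percentile. The 75th percentile was 507, 595 and 313 on XCR1- replicates 1, 2 and 3 and 299 on the XCR1+ array. The share of spots well above background was 78.7%, 80.2% and 72.2% on the XCR1- arrays and 68.1% on the XCR1+ array, the lowest of the 4. The part of this weaker hybridisation in the results was not tested. Across 14331 features, which are not independent replicates, Pearson's r was 0.981 to 0.985 between XCR1- arrays, 0.954 to 0.959 between the XCR1+ array and the XCR1- arrays, and 0.859 to 0.93 between the XCR1+ array and arrays of other subsets. Over the 9806 features well above background on all 4 arrays, the median size of the difference between the XCR1+ array and the mean of the XCR1- arrays was 0.38 log2, while each XCR1- array differed from the mean of the other 2 by a median of 0.15 to 0.23.

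Of the 209 named genes whose probe was well above background on the XCR1+ array, 87 lay above the XCR1- range (41.6%), next to 43.7% of all features. Of the 229 well above background on the XCR1- arrays, 95 lay below it (41.5%), next to 33.3% of all features. Being outside a range of 3 arrays was thus common over the whole array and says little of a gene alone, so the size of the gap is given below. The same shares, which count features well above background, stand behind the count of every list, whose totals also include dim genes. At least 2-fold beyond the nearest XCR1- array were 25 named genes above (12%, against 5.66% of all features) and 29 below (12.7%, against 6.21%). A normexp background correction, which models each spot's background from all spots of the array and was run in a form chosen after the data were seen, turned the split of named genes from 87 above and 95 below to 91 and 63, and that of all features from 4406 and 3515 to 4697 and 2297. It also moved 38 of 110 differences of single genes by more than 1.5-fold, against 23 in the authors' value table. An alternative fit with limma took the spread from the XCR1- arrays alone and assumed that XCR1+ DC vary in the same way, which 1 array cannot show, so its counts are no test of the subsets. It placed 27 of 240 named genes higher and 27 lower at an adjusted p under 0.05, next to 6.12% and 7.45% of the 10822 features in the fit.

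**Figure D1:**
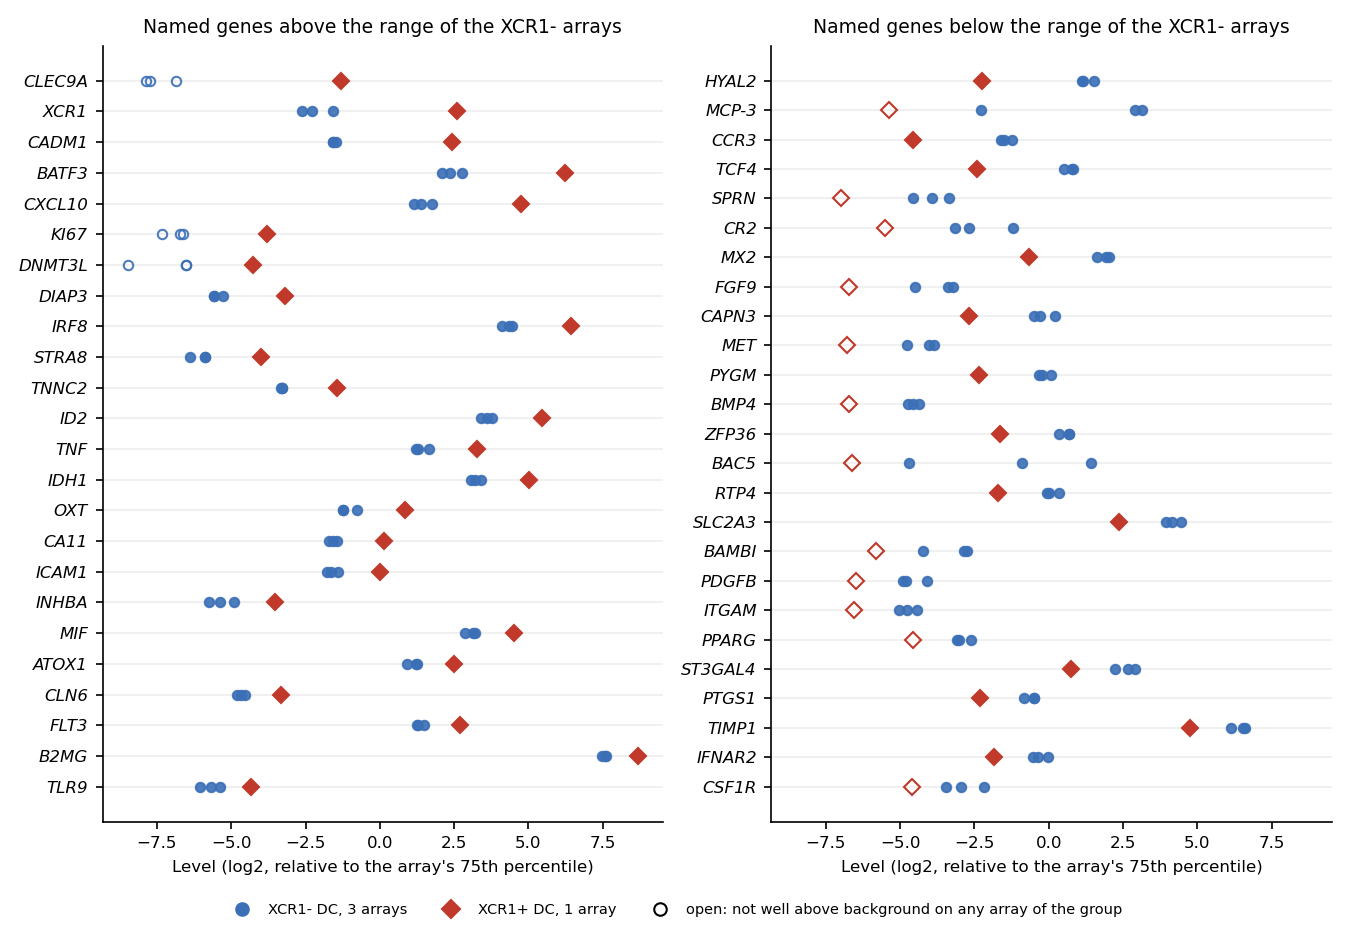
Named genes with the largest gaps above the XCR1- range (left, 24 genes, 1 of the 25 not being reported here) and below it (right, 25 genes), as log2 levels relative to the 75th percentile of each array on the x axis; blue circles are the 3 XCR1- arrays and the red diamond is the XCR1+ array. *CLEC9A*, *XCR1* and *CADM1* stand farthest above, *HYAL2*, *MCP-3* and *CCR3* farthest below, and open symbols mark groups in which no array was well above background.

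Of the cDC1 genes, *CLEC9A*, *XCR1* and *CADM1* had the largest gaps of any named gene above the XCR1- range. By the same ranking the others ran from *BATF3* at rank 5 to *FLT3* at rank 23, with genes of no cDC1 list between them. Of the 8 cDC1 genes found on the array by symbol, 7 were above the XCR1- range, next to 43.7% of all features, and none was below it. Of these 7, *CADM1* was selected for by the sort, and *CLEC9A* was well above background on the XCR1+ array only. *KIT* (named CKIT in the files) was dim, that is, well above background on none of the 4 arrays. The median difference of the 7 was 3.84 log2, while that of all features well above background on any of the 4 arrays was 0.07. The summed linear level of the 8 genes was 38.7 to 41.7 times the 75th percentile on the XCR1- arrays and 224 on the XCR1+ array.

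*XCR1* had levels of -1.58, -2.63 and -2.29 on XCR1- replicates 1, 2 and 3 and 2.61 on the XCR1+ array, 27.4-fold above the XCR1- mean of -2.16 ± 0.54 (SD, n = 3). This log2 difference, 4.77, was 3.85 with the normexp correction. Its spots were well above background on all 4 arrays, and the XCR1- levels overlapped those of MP, of which the highest array was at -2.17. *CLEC9A*, the dead-cell receptor, was at -7.73, -7.88 and -6.85 on the XCR1- arrays and -1.31 on the XCR1+ array. It was well above background on the XCR1+ array and on no other of the 17 arrays, which makes the difference at least 25.1-fold on this scale. The log2 difference from the dim XCR1- spots, 6.18, was 1.94 with the normexp correction and 3.34 in the authors' value table, so its size depended on the setting. The second spot of the same *CLEC9A* sequence read -8.41, -7.62, -7.37 and -1.54 on these arrays, so the XCR1+ array was the highest of the 4 at both spots. *CADM1*, the adhesion molecule used in the sort, was at -1.48, -1.57, -1.56 and 2.44, 15.8-fold higher on the XCR1+ array, where the sort required it.

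Transcription factors of the lineage followed. *BATF3* was at 2.10, 2.75 and 2.36 on the XCR1- arrays and 6.24 on the XCR1+ array, 14.3-fold above the XCR1- mean of 2.41 ± 0.33 (SD, n = 3). *IRF8* was at 4.44, 4.10, 4.33 and 6.44, a 4.43-fold difference, and its dimmer probe, whose sequence is given above, was at 1.16, 0.96, 1.32 and 2.86. Both *IRF8* probes thus had the XCR1+ array above every XCR1- array. *ID2*, an inhibitor of other helix-loop-helix factors, was at 3.60, 3.78, 3.39 and 5.44, 3.61-fold above the XCR1- mean. *FLT3*, the growth factor receptor, was at 1.5, 1.30, 1.26 and 2.69, and the second spot of its sequence at 1.55, 1.33, 1.22 and 2.77. That the XCR1+ value lay outside the XCR1- range is what the rule chose these genes for.

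Set against all 17 arrays, the XCR1+ array was the highest for each of these 7 genes. For *XCR1*, *CADM1*, *BATF3*, *CLEC9A* and *FLT3* the next array was lower by more than 1 log2 unit. For *IRF8* the next was pDC replicate 3 at 5.62, and for *ID2* it was MoDC replicate 3 at 5.33, a difference from 5.44 smaller than the SD of 0.20 of the XCR1- arrays. B replicate 4, the array of another subset on the same slide, was at -4.11 for *XCR1*, -7.50 for *CLEC9A*, -1.30 for *CADM1*, -0.45 for *BATF3* and -5.69 for *FLT3*. Of the 86 named genes above the XCR1- range with a value on all 17 arrays, 35 exceeded all 16 other arrays (40.7%), against 25.8% of all features above it. Of the 94 below, 6 were lower than all 16 (6.38%), against 10.8% of all features. These 6 were *CAPN3*, *FTH1*, *IFNAR2*, *PPARG*, *RTP4* and *SLC2A3*.

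**Figure D2:**
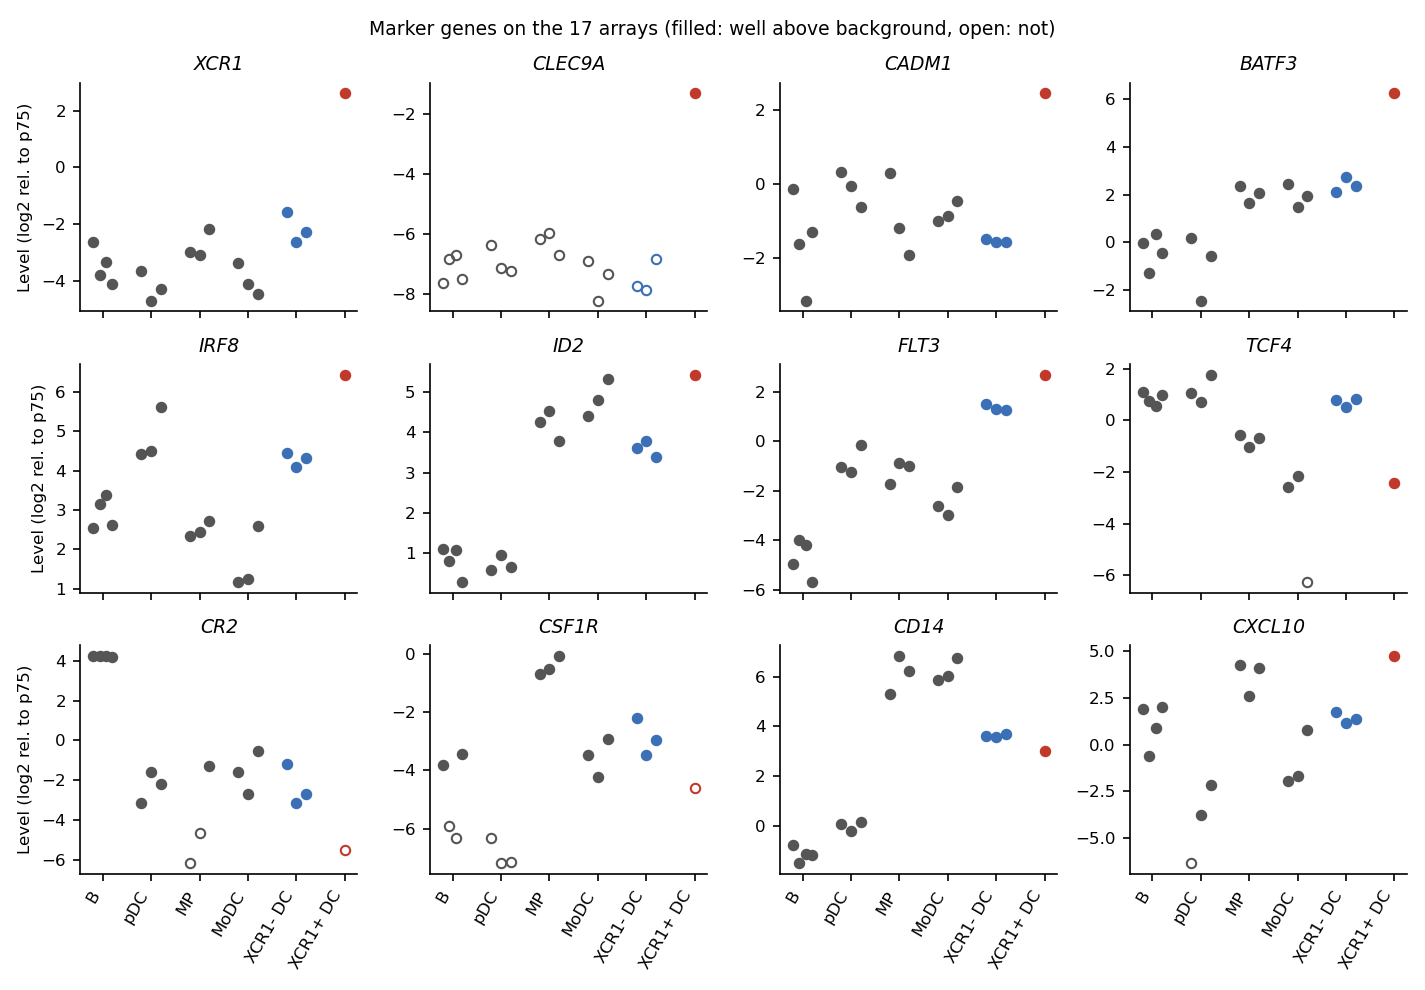
Log2 levels of 12 marker genes on the 17 arrays relative to the 75th percentile (p75) of each array, one point per array, grouped by subset, with XCR1- DC in blue and XCR1+ DC in red. The XCR1+ point is the highest for *XCR1* (2.61), *CLEC9A* (-1.31), *CADM1* (2.44), *BATF3* (6.24), *IRF8* (6.44), *ID2* (5.44), *FLT3* (2.69) and *CXCL10* (4.75), and lies below the XCR1- points for *TCF4*, *CR2*, *CSF1R* and *CD14*.

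In the other direction, *TCF4*, the factor of pDC, was at 0.79, 0.53 and 0.83 on the XCR1- arrays and -2.41 on the XCR1+ array, 8.76-fold lower (a log2 difference of -3.13, and -2.25 with the normexp correction). The XCR1- arrays lay at the level of the pDC arrays, which averaged 1.19, and of the B arrays, which averaged 0.85, while the XCR1+ array lay below all of them. The other pDC gene measured, *TLR9*, an endosomal receptor for DNA, differed the opposite way, at -5.38, -6.05, -5.68 and -4.32, with 2 of the 3 XCR1- arrays well above background. The summed level of these 2 genes was 1.46 to 1.79 on the XCR1- arrays and 0.238 on the XCR1+ array, with *TCF4* the larger part on each of the 4 arrays. The label XCR1+ was thus matched by the level of *XCR1*, with *BATF3* also high and *TCF4* low, while high *CADM1* was set by the sort.

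Of the 4 cDC2 genes on the array, 3 were below the XCR1- range and none above, next to 33.3% and 43.7% of all features. *CSF1R*, the receptor of the macrophage growth factor, was at -2.19, -3.46 and -2.95 on the XCR1- arrays. On the XCR1+ array it was at -4.61, not well above background, so that the difference was at least 3.37-fold. *IL1B*, an inflammatory cytokine, was at -2.50, -2.22, -2.12 and -3.25, 1.96-fold lower on the XCR1+ array. *ITGAM*, which encodes CD11b, was at -5.04, -4.44 and -4.77 on the XCR1- arrays and -6.55 on the XCR1+ array, where it was not well above background. The lowest signal that counted as well above background on the XCR1+ array was -4.72, above the *ITGAM* mean of XCR1- DC (-4.75), so no fold can be given, and its sign turned with the normexp correction. *SIRPA*, the gene of the CD172 sort marker, was dim on all 4 arrays and could not serve as a check.

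Genes of monocytes and macrophages were lower on the XCR1+ array in 5 of 5 cases, next to 33.3% of all features, with a median difference of -0.61 log2. *CSF1R*, already counted among the cDC2 genes, is 1 of the 5. The others differed by -0.76 to -0.50, no more than the reference gene *GAPDH* (-0.79). The lysozyme gene *LYZ* was at 5.55, 5.27, 5.38 and 4.64, and *SLC11A1*, a metal transporter of phagosomes, at 2.67, 2.78, 2.87 and 2.28. For *CD14*, the lipopolysaccharide co-receptor, the probes disagreed. The brighter one was at 3.62, 3.58, 3.69 and 3.02, below the range on the XCR1+ array, and the other at -0.41, -0.18, -0.06 and 0.17, above it. The summed level of these 5 genes was 57.8 to 66.3 on the XCR1- arrays and 38.3 on the XCR1+ array.

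Markers of other blood cells also differed between the arrays. Of 10 T and NK cell genes, 6 were below the XCR1- range and none above, next to 33.3% and 43.7% of all features, 3 (*CD28*, *IL2* and *IFNG*) were dim on all 4 arrays, and the summed level was 4.65 to 6.23 on the XCR1- arrays and 3.04 on the XCR1+ array. *CD3E*, a chain of the T cell receptor complex, was at 1.19, 1.66, 1.85 and 0.75, so it was well above background in both subsets, and *CTLA4*, 1 of the 6, turned sign with the normexp correction. *CR2*, a complement receptor of B cells and the B cell gene measured, was at -1.20, -3.15 and -2.69 on the XCR1- arrays and -5.50 on the XCR1+ array, at least 5.18-fold lower, against 4.20 on B replicate 4. Of 4 neutrophil, erythroid and platelet genes, *HBB* was above the range, *BAC5* was below it and *LTF* and *CATHL3* were not called, with a summed level of 1.60 to 3.45 on the XCR1- arrays and 1.93 on the XCR1+ array. *HBB*, a globin gene, was at -2.88, 0.42, -0.42 and 0.83, and *BAC5*, a cathelicidin of neutrophils, at 1.42, -4.70, -0.91 and -6.61, so both varied among XCR1- arrays by more than 3 log2 units. In such bulk samples fewer cells of a type and less RNA per cell cannot be told apart, and the part of these other cells in the differences was not tested.

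**Figure D3:**
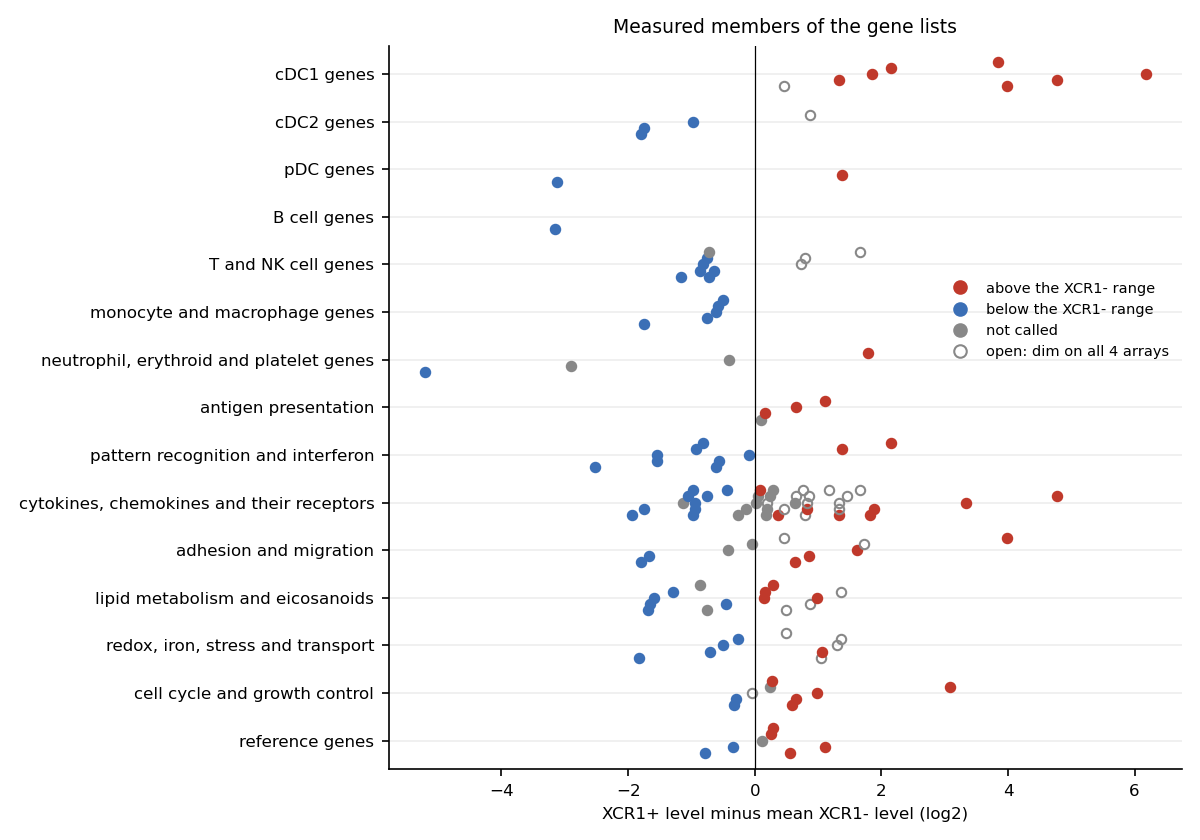
Difference in log2 level between the XCR1+ array and the mean of the 3 XCR1- arrays for the reported genes of 15 lists, one point per gene, with red for genes above the XCR1- range, blue for genes below it, grey for genes not called and open points for genes well above background on none of the 4 arrays. The called cDC1 genes all lie to the right of 0, from 1.33 to 6.18, and the called genes of the cDC2, T and NK cell and monocyte and macrophage lists lie to the left.

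Among antigen presentation genes of the list, 3 of 4 were above the XCR1- range, next to 43.7% of all features. A gene named *MHC2* in the files, in none of the lists, was at -1.74, -2.57, -1.93 and -1.84 and was not called. *B2MG*, the file's name for beta-2-microglobulin, the light chain of MHC class I, was at 7.60, 7.58, 7.47 and 8.67, 2.17-fold higher on the XCR1+ array and beyond the spread of the XCR1- arrays (SD 0.07, n = 3). *CD80*, a ligand of CD28, was at -3.70, -4.16, -3.69 and -3.20. Its relative *CD86* was at 4.17, 4.23, 3.98 and 4.30, a difference of 0.17 that turned to -0.14 with quantile normalization and to -0.12 in the authors' value table. *CALX*, the calnexin gene, was not called, with a difference of 0.10.

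Of 10 genes of pattern recognition and interferon signalling, *IRF8* and *TLR9* were above the XCR1- range and 8 were below it. Among all features, 43.7% were above and 33.3% below. The 8 included *CD14*, of which only the brighter probe was below. *MX2*, an antiviral GTPase induced by interferon, was at 1.93, 1.63, 2.01 and -0.67, 5.76-fold lower on the XCR1+ array. *ISG15*, an interferon-induced ubiquitin-like protein, was at 1.34, 2.12, 2.14 and 0.32, and *MX1* at 2.19, 2.05, 2.51 and 1.42. The XCR1+ array was the lowest of the 4 for each of these interferon-induced genes. *RTP4*, which is also induced by interferon and was named by the size of its gap, was at -0.07, 0.02, 0.34 and -1.69 and was lower than on all 16 other arrays. Of the receptor chains for type I interferon, *IFNAR2* was at -0.52, -0.02, -0.36 and -1.85, 2.93-fold lower (a log2 difference of -1.55, and -0.92 with the normexp correction), whereas *IFNAR1* was at 4.13, 4.14, 4.08 and 4.02, a difference of -0.09. *TLR2*, a receptor for bacterial lipopeptides, was at -0.20, 0.81, 0.41 and -0.58.

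*CXCL10*, a chemokine for T cells that interferons induce, went against these genes. It was at 1.75, 1.14 and 1.38 on the XCR1- arrays and 4.75 on the XCR1+ array, 10.04-fold above the XCR1- mean of 1.42 ± 0.31 (SD, n = 3). Its level on the XCR1+ array was above all other arrays, of which MP replicate 1 was next at 4.27.

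Of 39 cytokine, chemokine and receptor genes, 27 were well above background on at least 1 of the 4 arrays, 8 were above the XCR1- range and 9 below it. Of all features, 43.7% were above and 33.3% below. *TNF* was at 1.64, 1.21, 1.29 and 3.27, 3.72-fold higher on the XCR1+ array, and on its dimmer probe, at -4.89, -4.57, -4.59 and -3.95, it was again above every XCR1- array. *XCL1*, the ligand of XCR1, was at -2.71, -2.66, -2.22 and -1.71, 1.77-fold higher. *IL18* was at -1.03, -1.09, -0.91 and -0.64. *INHBA*, a subunit of activin, was higher at the spot used (difference 1.82) but not at the second spot of the same sequence (difference -0.04), so its difference was not repeated within the array. Lower on the XCR1+ array were the chemokine *CXCL8*, at 0.42, 1.04, 0.60 and -0.25, the regulatory cytokine *IL10*, at -2.24, -1.25, -1.72 and -2.80, and *IL2RA*, the CD25 chain of an interleukin receptor, at -2.58, -2.21, -2.08 and -3.05. *IL6* was at -3.90, -5.47 and -4.20 on the XCR1- arrays and not well above background on the XCR1+ array (-6.47), and its sign turned with the normexp correction. *ACVR2B* (0.09), *ACVR1* (-0.43) and *BMPR2* (-0.95), receptors for activins and bone morphogenetic proteins, and *GHR*, the growth hormone receptor, complete the called members with *XCR1*, *FLT3*, *CSF1R* and *IL1B*, and for *GHR*, which was dim on the XCR1+ array with an XCR1- mean (-5.23) under the lowest signal that counted there, no size can be given and the sign turned with the normexp correction and in the authors' table.

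Of 10 adhesion and migration genes, 4 were above the XCR1- range and 2 below, next to 43.7% and 33.3% of all features. *ICAM1*, a ligand of leukocyte integrins, was at -1.41, -1.78, -1.64 and 0.00, 3.06-fold higher on the XCR1+ array. *ITGB2*, the beta chain that pairs with CD11b and CD11c, was at 4.54, 4.49, 4.54 and 5.38, while *ITGAL*, another of its partners, was not called, with a difference of -0.04. *LGALS1*, a galectin, was at 6.0, 6.45, 6.25 and 6.86. *TIMP1*, an inhibitor of matrix metalloproteinases, was at 6.14, 6.6, 6.54 and 4.75, 3.19-fold lower on the XCR1+ array. The largest gap of any named gene below the XCR1- range was that of *HYAL2*, a membrane-anchored hyaluronidase, which was at 1.53, 1.13, 1.15 and -2.26, 11.5-fold lower, a log2 difference of -3.53 that was -2.60 with the normexp correction.

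In lipid metabolism, both cyclooxygenases, which start prostaglandin synthesis, were lower on the XCR1+ array, whereas *PTGDS*, a prostaglandin D synthase that is in none of the lists and was added after its values were seen, was above the range at -3.90, -4.19, -4.20 and -3.13. *PTGS1*, the constitutive cyclooxygenase, was at -0.51, -0.50, -0.83 and -2.30, 3.21-fold lower. The inducible enzyme *PTGS2* was at -0.39, -2.14, -1.86 and -3.05, and the same probe sequence under the name PGHS2 at -0.22, -1.89, -1.52 and -2.50, so these 2 entries are 1 gene. *PPARG*, a nuclear receptor for fatty acids, was at -3.08, -2.60 and -3.03 on the XCR1- arrays and -4.55, not well above background, on the XCR1+ array, at least 3.14-fold lower. *ABHD5*, a cofactor of triglyceride lipase, differed by -0.46 and turned sign with the normexp correction. Above the range were *SCD* (0.98), *ACLY* (0.29), *DGAT1* (0.16) and *PLIN2* (0.15), which serve fatty acid and triglyceride synthesis and storage. The gaps of *ACLY*, *DGAT1* and *PLIN2* to the nearest XCR1- array were only 0.11, 0.02 and 0.07. *ACACA* (-0.86) and *LPL* (-0.75) of the same list were lower but not called, being well above background on only 2 and 1 of the XCR1- arrays. Of the 14 entries in this list, 4 were above and 5 below, with the same gene counted under both *PTGS2* and PGHS2. Among all features the shares were 43.7% and 33.3%.

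Of 9 redox, iron and transport genes, 4 were below the XCR1- range and 1 above, next to 33.3% and 43.7% of all features. *TXN*, the thioredoxin gene, was above it at 2.52, 2.64, 2.41 and 3.58. *SLC2A3*, a glucose transporter, was at 3.95, 4.44, 4.15 and 2.35, 3.55-fold lower on the XCR1+ array. The ferritin heavy chain gene *FTH1* was at 7.45, 7.66, 7.61 and 6.87. *SLC11A1* (-0.50) and the prion protein gene *PRNP* (-0.26) were the other 2 below. *ATOX1*, a copper chaperone named by the size of its gap, was at 1.22, 1.24, 0.92 and 2.51, and *IDH1*, the cytosolic isocitrate dehydrogenase, at 3.41, 3.07, 3.19 and 5.03.

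Of 10 cell cycle and growth genes, 5 were above the XCR1- range and 3 below, next to 43.7% and 33.3% of all features. *KI67*, the proliferation marker also written MKI67, was not well above background on the XCR1- arrays (-6.71, -6.61 and -7.34) and was at -3.81 on the XCR1+ array, at least 4.43-fold higher. This level was still below the means of the pDC arrays (-1.09) and of the B arrays (-2.04). *PCNA*, a clamp of DNA polymerase, was at 0.96, 0.87, 0.53 and 1.44. Genes of cell death split, with *BAX* (0.98) and *FASLR* (0.59) above and *BCL2* (-0.29) and *BCL2L1* (dim on the XCR1+ array, at least 1.02-fold) below. The differences of *MCL1* (0.27) and *BCL2L1* turned sign under other settings, *MCL1* with quantile normalization and in the authors' table and *BCL2L1* with the normexp correction.

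The 8 reference genes were 4 above, 3 below and 1 inside the range, while 43.7% of all features were above and 33.3% below. *RPS26* was at 8.29, 8.11, 8.16 and 8.73 and *GAPDH* at 5.21, 5.44, 5.44 and 4.58. *HPRT1* was also lower, with a difference of -0.35. *EF1A1* (0.25) and *UBB* (0.29) were higher here and lower with quantile normalization and in the authors' table. With *B2MG* (1.11), differences from -0.79 to 1.11 were thus also found among genes commonly used as references.

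The remaining genes with the largest gaps had no list in common. Above the range, *MIF*, a secreted inhibitor of macrophage migration, was at 2.85, 3.13, 3.21 and 4.5. *CA11*, a protein related to carbonic anhydrases, was at -1.71, -1.43, -1.59 and 0.14. *TNNC2*, a muscle troponin, was at -3.30, -3.31, -3.28 and -1.45, and *OXT*, the oxytocin gene, at -1.23, -1.24, -0.76 and 0.84. *DIAP3* (2.28), *STRA8* (2.07), *CLN6* (1.36) and *DNMT3L* (2.89, at least 3.18-fold) were also above the range. *DNMT3L* was well above background on no XCR1- array, and its difference was 2.24 without XCR1- replicate 1.

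Below the range, *CCR3*, the eotaxin receptor of eosinophils and basophils, was at -1.22, -1.59, -1.49 and -4.58, 8.85-fold lower on the XCR1+ array. This log2 difference, -3.15, was -1.08 with the normexp correction and -2.03 in the authors' value table. *MCP-3*, a symbol that has served for more than 1 protein and is given no role here, was at -2.27, 3.13 and 2.90 on the XCR1- arrays and not well above background on the XCR1+ array (-5.38), at least 63.0-fold below the XCR1- mean of 1.25 ± 3.05 (SD, n = 3). The XCR1- arrays thus spread over more than 5 log2 units for this gene, with replicate 1 apart from the other 2, and the log2 difference of -6.64 was -8.40 without replicate 1, -5.70 without replicate 2, -5.82 without replicate 3 and -3.52 with the normexp correction. *ZFP36*, which destabilises cytokine mRNA, was at 0.36, 0.68, 0.67 and -1.63, 4.58-fold lower. *CAPN3*, a calpain protease, was at 0.21, -0.30, -0.49 and -2.69, and *ST3GAL4*, a sialyltransferase, at 2.23, 2.90, 2.66 and 0.75. *PYGM*, the muscle form of glycogen phosphorylase, was at 0.08, -0.34, -0.23 and -2.36.

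A last set was measured on the XCR1- arrays only, since the XCR1+ array was not well above background. *BAMBI*, a decoy receptor for transforming growth factors, was at -4.22, -2.84 and -2.74 on the XCR1- arrays, at least 2.74-fold above the XCR1+ array, and on its second probe the XCR1+ array was again the lowest of the 4. *FGF9* was at least 2.03-fold lower on the XCR1+ array, *SPRN* at least 1.72-fold and *MET*, the receptor of hepatocyte growth factor, at least 1.42-fold. For *BMP4* (at least 1.12-fold) and *PDGFB* (at least 1.09-fold) the sign turned with the normexp correction, and for *MET* the difference became 0.00.

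**Figure D4:**
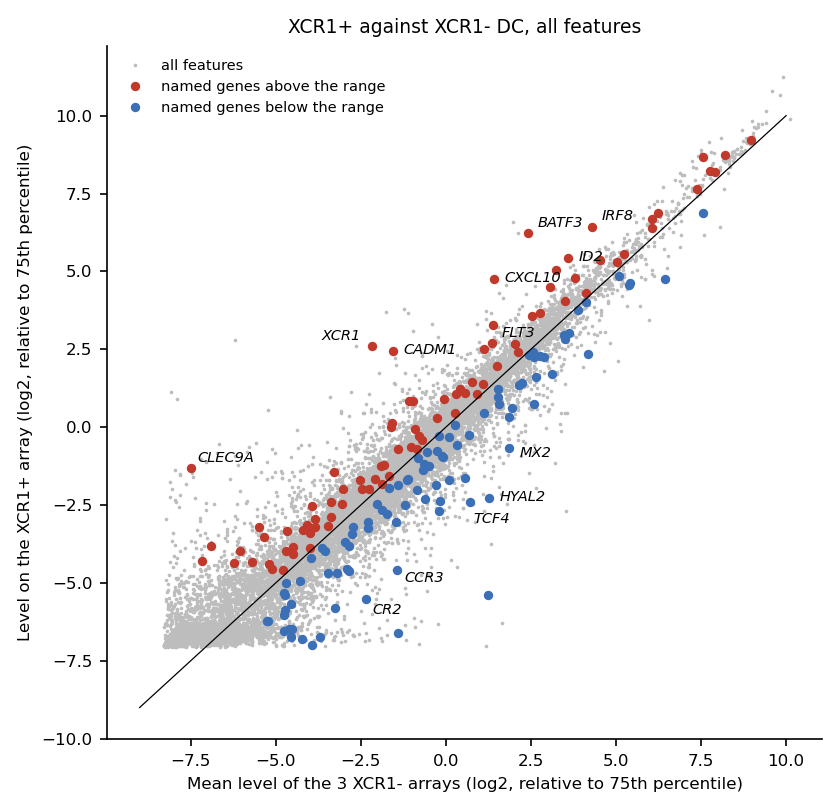
Log2 level on the XCR1+ array (y axis) against the mean of the 3 XCR1- arrays (x axis), both relative to the 75th percentile, for 14532 features in grey, with 86 of the 87 named genes above the XCR1- range in red and 93 of the 95 below it in blue (the others are not reported here); the line marks equal levels. Most features lie along the line, *CLEC9A*, *XCR1*, *CADM1* and *BATF3* lie far above it, and *TCF4*, *HYAL2* and *CCR3* lie far below.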

How the data were processed

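Sheep RNA was hybridised to one-colour Agilent arrays (Cy3). Per the file headers, the authors read spots with Feature Extraction 10.10.1.1 on these 4 arrays, and the deposited values are background-corrected intensities, not normalized between arrays, with flags for spots well above background and outliers. The deposited series table holds the authors' log2 values, made with limma per the labels (version and centring not given) and matched to probes by name order (r of 0.969 to 0.988 with its own array). It served as an alternative only.

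Outlier-flagged spots were left out, and log2 intensity minus the 75th percentile of the 15208 non-control spots was averaged per probe. A probe counted as well above background when more than 50% of its spots did. A gene with more than 1 probe was represented by its probe of highest summed level over 17 arrays. Symbols came from the files (143 probes) or from accessions in a RefSeq table of ARS-UI_Ramb_v3.0 (298 probes), used for names only. The naming rule took the 25 genes with the largest gaps in each direction and the genes of the lists, and some of these items are not reported here. "At least" folds use the lowest signal well above background, or the dim probe's own where higher. Members and lists were chosen with earlier results of these data known. limma 3.58.1 in R 4.3.3 and the range rule were run on simulated data as a check of the code. For limma these data gave XCR1+ DC the same spread as XCR1- DC, and for the range rule the shifts were large. The runs thus cannot show how either fares if XCR1+ DC vary otherwise. No value here has a depth in reads, and 1 array limits the precision of XCR1+ DC.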

Additional observations from a re-analysis of the deposited data

How the results depend on the processing

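The counts rest on the rule used. Without the background filter 196 named genes lay above the XCR1- range. Requiring a 2-fold gap left 25 named genes above and 29 below (570 and 655 features), and limma, with Benjamini-Hochberg adjusted p under 0.05, gave 27 and 27 (on the assumption that XCR1+ DC vary as XCR1- DC do; 662 and 806 features; 3314 features at an unadjusted p under 0.05). Plain normexp, which was planned, was not used, because on the XCR1+ array, where 10 spots had a local background over 3 times the array median, it set the 5th percentile of the corrected signal to 995.7 (58.6 without those spots). Without those spots, a setting added after seeing the data, 63 named genes and 2297 features lay below. Without 1 XCR1- array at a time, 94 to 100 named genes were above and 105 to 111 below (4759 to 5117 and 4007 to 4125 features). Quantile, median and series-table values, other probe rules and kept outliers gave counts within 1.5 times.

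Of 110 differences of single genes, all kept their direction with median scaling, with kept outlier spots, with probe means and without any 1 XCR1- array. The size of 58 moved by more than the SD of the XCR1- arrays with normexp, of 61 in the series table, of 29 with quantile normalization and of 4 with probe means. Without replicate 1 the difference of *BAC5* went from -5.21 to -3.80, of *HBB* from 1.79 to 0.83 and of *DNMT3L* from 2.89 to 2.24, and without replicate 2 that of *BAC5* was -6.86 and of *HBB* 2.48. With normexp 8 turned: *ABHD5* 0.03, *BCL2L1* 0.22, *BMP4* 0.17, *CTLA4* 0.18, *GHR* 0.45, *IL6* 0.13, *ITGAM* 0.12 and *PDGFB* 0.18. With quantile normalization 4 turned: *CD86* -0.14, *EF1A1* -0.08, *MCL1* -0.04 and *UBB* -0.2. In the series table of the authors, 5 turned: *CD86* -0.12, *EF1A1* -0.06, *GHR* 0.01, *MCL1* -0.16 and *UBB* -0.17. The cause was not tested. The difference of *CLEC9A*, 6.18, became 1.94 with normexp and 3.34 in the series table, and that of *XCR1*, 4.77, became 3.85 and 4.24. The median difference of all features was 0.10, and between 0.03 and 0.16 under these settings. No paired analysis was possible because XCR1+ DC had 1 array. Signal over background limits dim genes, and 1 array limits all values of XCR1+ DC.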

Other observations

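A few called genes outside the lists, chosen after their values were seen, stand beside members of the report. *FLT3LG*, the ligand of FLT3, was at 1.15, 1.23 and 1.02 on the XCR1- arrays and 0.45 on the XCR1+ array, so that the ligand was lower where its receptor was higher. *UNC93B1*, which carries endosomal receptors such as TLR9 to their compartment, was at 2.19, 2.19, 2.09 and 1.36, and the second spot of its sequence at 2.22, 2.07, 2.11 and 1.27, lower on the XCR1+ array, where *TLR9* was higher.

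The forms of glycogen phosphorylase differed in direction. *PYGL*, the liver form, was at 1.69, 2.31 and 2.10 on the XCR1- arrays and 2.67 on the XCR1+ array. *PYGB*, the brain form, was at -1.42, -0.97, -0.92 and -1.67. With *PYGM*, which had a difference of -2.19, 1 form was above the XCR1- range and 2 were below it. These differences kept their direction under every alternative setting that was run.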
